A study of Ovis aries with 36 samples.

Results

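Of the 25197 genes measured in sheep infraspinatus muscle, 162 had a lower level after release of the tendon and a lower level in the operated than in the other muscle at the end of the study. The members were chosen from these values alone, on the log2(value + 1) scale. The mean over 9 animals of the change with release had to be at most −0.7, and the mean over 9 animals of the difference between operated and other muscle at the end at most −0.4. A gene also needed a value above 1 in all 36 libraries and a median value of 10 to 10000. A run of 37 identifiers at the start of the annotation and 2 single identifiers were left out. These abundance conditions were met by 12393 genes, of which 309 met the first threshold and 1215 the second. The 147 genes that met the first threshold and missed the second serve below as the comparison list and are called genes lowered by release only.

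The infraspinatus belongs to the rotator cuff of the shoulder and was sampled in 9 female Swiss Alpine sheep aged 2 years. In every animal, the controls included, its tendon was released and reattached 16 weeks later, so no animal went without surgery. N22W animals received 150 mg of nandrolone decanoate each week for 22 weeks, beginning at release. N6W animals received the same weekly dose for the 6 weeks after repair, and CONTROL animals received no drug. Each arm held 3 animals, numbered 2913, 2914 and 2915 in N22W, 2907, 2908 and 2909 in N6W, and 2901, 2902 and 2903 in CONTROL. More animals per arm are described in the design text than the 3 analysed here. From each animal 4 total RNA libraries were sequenced. PRE is the operated muscle before surgery, TR is that muscle when the tendon was reattached, and END is that muscle 6 weeks later. END-CC is the contralateral muscle, taken at the same time as END. N22W animals were under the drug at TR, END and END-CC, and N6W animals at END and END-CC. The contralateral muscle belongs to an animal that had carried an operated shoulder, and in 2 of the 3 arms to a treated one.

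Release of a tendon removes the load from its muscle. Unloaded rotator cuff muscle is known for loss of fibre mass, for a shift in the make-up of fibres and their energy metabolism, and for the growth of fat and connective tissue between fibres. Reattachment restores the pull on the muscle, and recovery afterwards is known to be slow and often incomplete. Nandrolone is an anabolic steroid that acts through the androgen receptor, and its decanoate ester is released slowly after injection.

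Each value is a number of reads scaled by its library's size factor, and is called normalized reads here. Reads recovered from them summed to 11879706 to 43066307 per library, and 15433 to 18571 genes had a value above 0. The same gene was the most abundant in all 36 libraries, with 22.53 to 37.17% of the summed values. In CONTROL and N22W, the libraries taken at PRE and TR, 12 in all, stand apart from the other 24: 499 genes were more than 8-fold higher in each of the 12 than in any of the 24, on values with 1 added, and took 8.34 to 12.78% of the summed values there, against 0.0276 to 0.0538%. None of the 162 members is among these 499 genes (0 members). The abundance conditions work against genes that are low in 24 of the 36 libraries. Their absence therefore does not show that the members are free of a difference between the sets. TR with PRE and END with END-CC always lie within 1 of these sets, whereas TR and END do so in N6W alone. No identifier could be paired with a gene name, so members are given by Ensembl identifier and without a function, and markers of muscle fibres, fat cells, fibroblasts or other cell types could not be read. The labelled tissue was therefore not checked against its markers. In a piece of muscle, fewer cells of a type and less RNA per cell cannot be told apart.

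The members' mean change from PRE to TR ran from −2.23 to −0.70 on the log2(value + 1) scale, with a median of −0.84. Their mean difference between END and END-CC ran from −2.43 to −0.40, with a median of −0.64. These values chose the members and are given as a description. The difference at END was a median of 70.7% of the release fall, with a range from 19.1 to 286%. It exceeded the release fall in 21 members and was at most 50% of it in 12. At least a 2-fold lower mean was reached by 42 members over release, by 17 at END and by 8 in both.

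**Figure D1:**
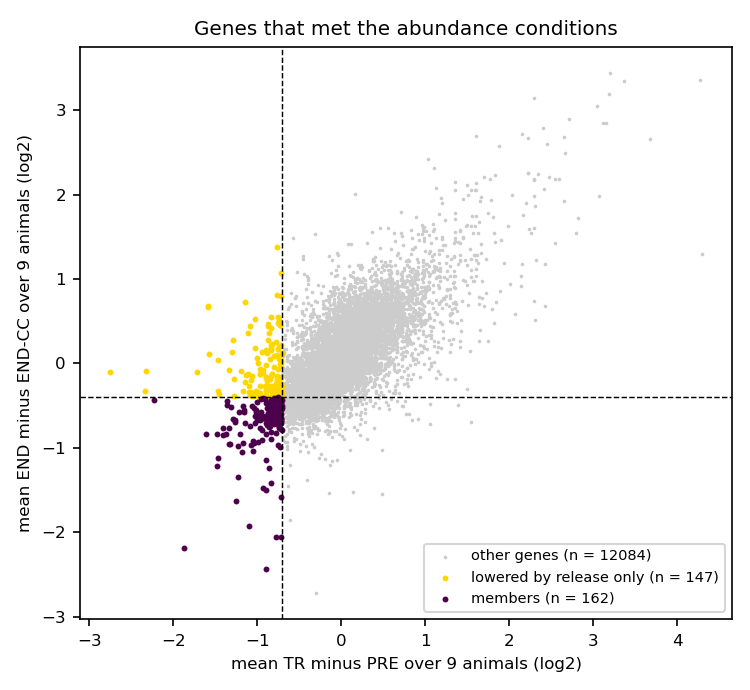
Mean change from PRE to TR (horizontal axis, log2) against mean difference between END and END-CC (vertical axis, log2) over 9 animals, 1 point per gene that met the abundance conditions. Dashed lines are the thresholds of −0.7 and −0.4, and the 162 members fill the lower left corner, beside the 147 genes lowered by release only and above the second threshold.

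The members were abundant genes, a feature that the thresholds on change did not set. Their median value over the 36 libraries had a median of 465.9 normalized reads, against 144 in the genes lowered by release only and 165 in all 12393 genes that met the abundance conditions. A median above 1000 normalized reads was found in 53 members, or 32.7%, against 15.6% of the genes lowered by release only and 11.8% of all that met the conditions. At the other end, 33 members had a median under 100. These are levels per gene and not per length, and long genes collect more reads. The members together took 0.579 to 0.754% of the summed values in N22W libraries at TR, against 1.11 to 1.29% at PRE. In N6W the sum was 0.636 to 0.976% at TR, against 1.37 to 1.44% at PRE, and in CONTROL 0.775 to 0.867% at TR, against 1.1 to 1.27% at PRE. The TR and PRE libraries did not overlap in this sum in any arm, which the choice of members alone could bring about.

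Most members were lower in nearly every animal. From PRE to TR, 100 of the 162 were lower in all 9 animals, 49 in 8 and 13 in 7 or fewer, with 5 animals as the lowest number. Between END and END-CC, 76 were lower in all 9 animals, 62 in 8 and 24 in 7 or fewer, with 6 animals as the lowest number. Both differences were negative in all 9 animals for 47 members. Choice by means over the same 9 animals favours such signs, and the counts are a description.

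In N22W, the median release change of the members was −1.30 in animal 2913, −0.61 in 2914 and −1.27 in 2915. In N6W, which had no drug by then, it was −0.26 in 2907, −0.57 in 2908 and −1.36 in 2909. In CONTROL it was −0.84 in 2901, −0.97 in 2902 and −0.65 in 2903. The deepest fall and the shallowest fall thus both came from N6W animals before any drug. Animal 2909 had all 162 members lower at TR, while 2907 had 123. Read totals also changed between PRE and TR. Animal 2909 had 31396162 reads at TR and 11879706 at PRE, and animal 2913 had 43066307 at TR and 32216830 at PRE. Animal 2915 had 18571719 at TR and 29370570 at PRE. Of the animals with the shallowest falls, 2907 had 17934103 at TR and 19974692 at PRE. Animal 2908 had 24465101 at TR and 14434978 at PRE. The part of depth in these values was not tested. The median over all genes tested lay between −0.06 and 0.10 in every animal.

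At END against END-CC, the members' median difference was −0.57, −0.57 and −0.69 in the N22W animals 2913, 2914 and 2915. It was −0.43, −0.11 and −1.03 in the N6W animals 2907, 2908 and 2909, and −1.02, −0.56 and −0.71 in the CONTROL animals 2901, 2902 and 2903. Animal 2908 stood nearest to 0, with 108 of the 162 members lower at END. In the other 8 animals 144 to 160 members were lower. The genes lowered by release only had medians of −0.43 to 0.17 in the same 9 animals, higher than the members in each, and their choice fixed this for the mean over animals.

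**Figure D2:**
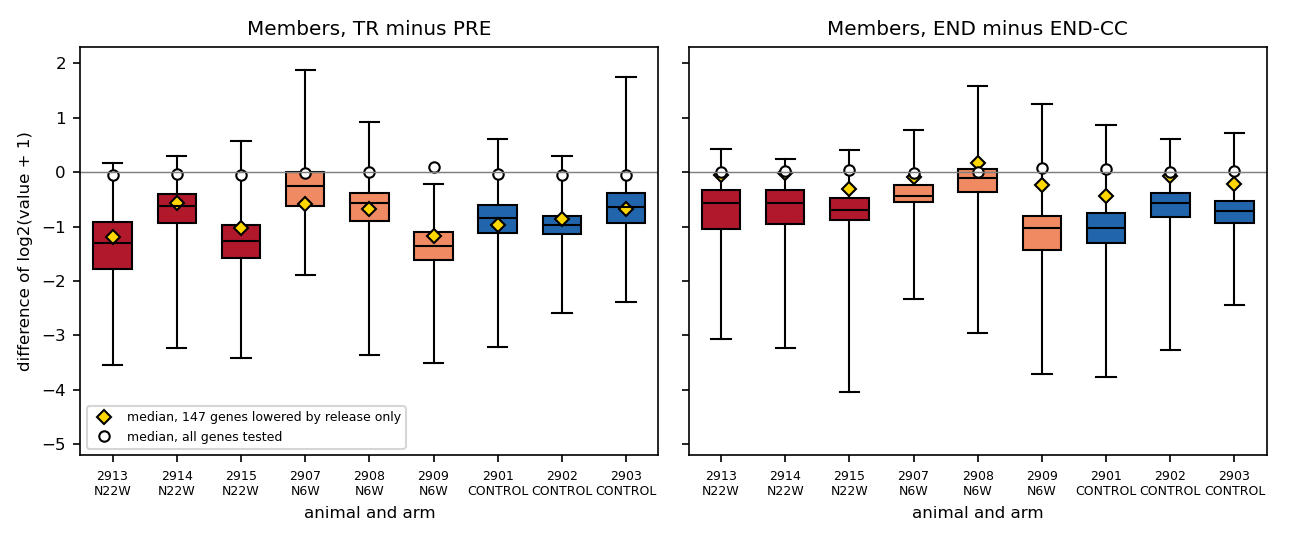
Difference of log2(value + 1) from PRE to TR (left panel) and between END and END-CC (right panel) for each animal, with N22W, N6W and CONTROL animals in that order. Boxes give the quartiles and median of the 162 members and whiskers their full range, diamonds the median of the 147 genes lowered by release only and circles the median of all genes tested. Animals 2909 and 2913 have the deepest boxes on the left, at −1.36 and −1.30.

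ENSOARG00000008147 had the largest mean release fall of the members, −2.23 ± 0.70 (SD, n = 9 animals). Its N22W values were 41.5, 26.4 and 16.1 normalized reads at TR and 255, 82.2 and 176 at PRE. N6W animals had 63.3, 56.5 and 23.02 at TR and 239, 111 and 160 at PRE, and CONTROL animals 107, 42.5 and 99.6 at TR and 605, 195 and 471 at PRE. Within each arm, all TR values lay below all PRE values. The difference at the end was small and mixed: END values were 59.3, 7.69 and 19.9 in N22W, against 43.6, 6.56 and 85.2 at END-CC. They were 74.9, 101 and 67.6 in N6W, against 81.4, 49.5 and 93.4 at END-CC, and 24.9, 22.8 and 63.97 in CONTROL, against 92.3, 42.96 and 69.7 at END-CC. Operated and other muscle overlapped in each arm, and the operated muscle was lower in 6 of 9 animals. In N6W, where all libraries lie in 1 set, the other muscle at END-CC also lay below the operated muscle at PRE in each animal.

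ENSOARG00000019026 was among the lowest members by both measures, with −1.87 ± 1.38 for release and −2.19 ± 1.26 for END against END-CC (SD, n = 9). N22W animals had 87.3, 22.04 and 83.02 normalized reads at TR, against 231, 134 and 55.4 at PRE. N6W animals had 166, 15.4 and 25.1 at TR, against 615, 168 and 294 at PRE. CONTROL animals had 14.9, 205 and 700 at TR, against 116, 624 and 830 at PRE. Only animal 2915 was higher at TR, and the arms' TR and PRE values overlapped in all but N6W. At the end, N22W animals had 71.9, 14.1 and 6.81 at END, against 101, 94.4 and 128 at END-CC. N6W animals had 259, 114 and 32.5 at END, against 1063, 225 and 436 at END-CC, and CONTROL animals 4.98, 50.98 and 186 at END, against 52.3, 120 and 508 at END-CC. All 9 animals were lower on the operated side, with the smallest difference in animal 2913 and the largest in 2915, and the groups overlapped in N6W and CONTROL.

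ENSOARG00000020383 had the largest mean difference at the end, −2.43 ± 0.91 (SD, n = 9), and was lower at END in all 9 animals. N22W animals had 84.5, 29.5 and 102 normalized reads at END, against 712, 222 and 933 at END-CC. N6W animals had 265, 603 and 478 at END, against 417, 2074 and 2087 at END-CC, and CONTROL animals 517, 271 and 770 at END, against 4680, 2633 and 2576 at END-CC. The groups did not overlap in N22W or CONTROL. In each N6W animal the END value lay above its own PRE value of 76.4, 170 and 394, and the END-CC value lay above both. Its release change was −0.90 ± 1.65 and negative in 5 of 9 animals. N22W animals had 214, 96.95 and 93.7 at TR, against 1161, 915 and 562 at PRE. In N6W the values were 183, 228 and 161 at TR, against 76.4, 170 and 394 at PRE, and in CONTROL 682, 198 and 671 at TR, against 445, 531 and 443 at PRE. All 3 N22W animals were lower at TR without overlap, while TR and PRE values overlapped in both other arms.

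The most abundant members showed the shared pattern with less spread. ENSOARG00000015094 had 5523, 8382 and 6587 normalized reads at TR in N22W, against 14660, 13000 and 15970 at PRE. In N6W it had 7833, 8184 and 4216 at TR, against 10660, 10790 and 9572 at PRE, and in CONTROL 9945, 8044 and 9660 at TR, against 18200, 15750 and 12290 at PRE. TR lay below PRE without overlap in each arm. At the end it had 6197, 6549 and 6323 at END in N22W, against 6660, 7974 and 9724 at END-CC. In N6W it had 9153, 10520 and 5522 at END, against 10960, 10630 and 10700 at END-CC, and in CONTROL 6848, 7325 and 7833 at END, against 11800, 9723 and 10770 at END-CC. END lay below END-CC without overlap in all 3 arms, by the least in animals 2913 and 2908. ENSOARG00000008573 had a mean release change of −0.74 ± 0.32 and a mean difference at END of −0.49 ± 0.31 (SD, n = 9). It was lower in all 9 animals by both measures, with some overlap between groups. In CONTROL, TR of animal 2901 was 9264 and PRE of 2903 was 9246. In N22W, END of animal 2915 was 6741 and END-CC of 2914 was 6389. In animal 2909 it had 3571 normalized reads at TR, against 8280 at PRE.

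**Figure D3:**
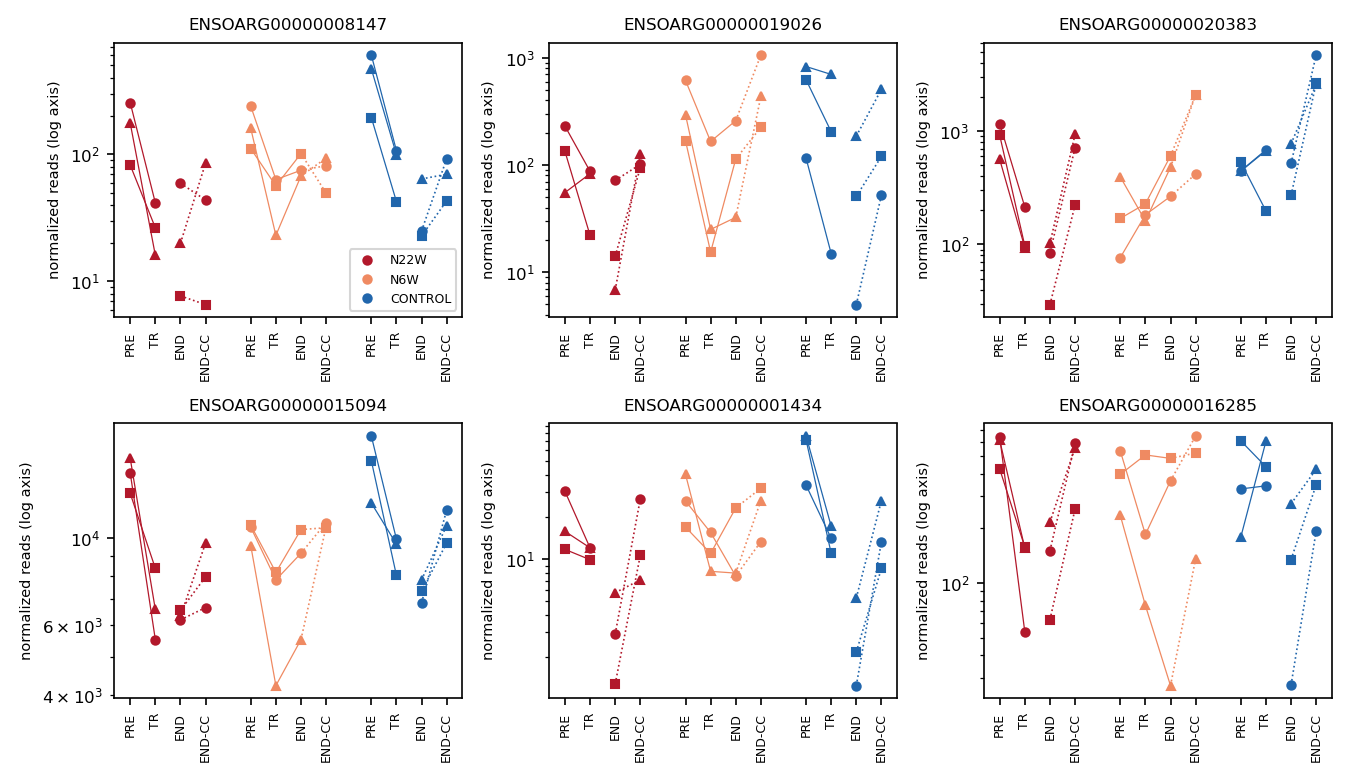
Normalized reads (log axis) of 6 members in all 36 libraries, with N22W, N6W and CONTROL from left to right and PRE, TR, END and END-CC within each arm. Symbols mark the 3 animals of an arm, solid lines join time points of the operated muscle within a set of libraries and dotted lines join END to END-CC of an animal. ENSOARG00000015094 lies lower at TR than at PRE in every animal, whereas ENSOARG00000020383 does so in all N22W animals and overlaps in N6W and CONTROL.

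The thresholds cut through a continuous cloud of genes. Within 0.1 of a threshold lay 62 members on the release side and 39 on the END side, and 104 and 48 further genes lay within 0.1 outside the same thresholds while meeting the other. The members nearest inside the release threshold were ENSOARG00000016864 at −0.7003 and ENSOARG00000007122 at −0.7022. The genes nearest outside it were ENSOARG00000003469 at −0.6968 and ENSOARG00000012394 at −0.6961. At the END threshold, ENSOARG00000020760 at −0.4010 and ENSOARG00000009492 at −0.4063 were the nearest inside, and ENSOARG00000018745 at −0.3997 and ENSOARG00000010684 at −0.3981 the nearest outside. Membership at these edges is decided by differences far below the spread between animals.

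Whether the pattern recurs in animals that did not choose the genes was asked by applying the rule to 2 arms and testing the third in its own 12 libraries. Both the thresholds and the abundance conditions were applied to the 6 animals of 2 arms alone. The test was limma with the animal as a block, at an adjusted p under 0.05 (Benjamini-Hochberg, over all 16417 genes tested). The rule found 129 genes without N22W, 265 without N6W and 160 without CONTROL. Of these, 96, 152 and 118 are among the 162 members, that is 74.4, 57.4 and 73.8% of the lists and 59.3, 93.8 and 72.8% of the members.

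For release, more than 50% of the genes were called lower in N22W and in CONTROL. Of the 129 genes chosen without N22W, 89 were called lower from PRE to TR in N22W, or 69.0%, beside 10.5% of all genes tested, with a median change of −0.95 and 123 genes lower. The count was 47 without animal 2913 and 22 without 2915. Of the 160 genes chosen without CONTROL, 94 were called lower in CONTROL, or 58.8%, beside 8.22% of all genes tested, with a median of −0.75 and 153 genes lower. The count was 59 without animal 2901 and 10 without 2902. In N6W, 15 of the 265 genes chosen without it were called lower, or 5.7%, beside 0.353% of all genes tested, with a median of −0.59 and 256 genes lower. That count was 0 without animal 2907, 0 without 2908 and 0 without 2909, while the median stayed negative, at −0.80, −0.67 and −0.33.

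At the end, the count of genes called was highest in CONTROL. There, 101 of 160 genes were called lower at END than at END-CC, or 63.1%, beside 10.8% of all genes tested, with a median of −0.76 and 156 genes lower. The count was 55 without animal 2901 and 56 without 2902. In N22W, 20 of 129 were called lower, or 15.5%, beside 0.615% of all genes tested, with a median of −0.57 and 120 genes lower. The count was 13 without animal 2913, 0 without 2914 and 3 without 2915. In N6W limma and edgeR each called 0 of 265 genes lower, beside 0% of all genes tested, and 101 genes, or 38.1%, had a limma p under 0.05 before adjustment, against 17.4% of all genes tested. The median there was −0.46 and 248 of the 265 genes were lower. Whether these counts differ between arms was not tested.

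**Figure D4:**
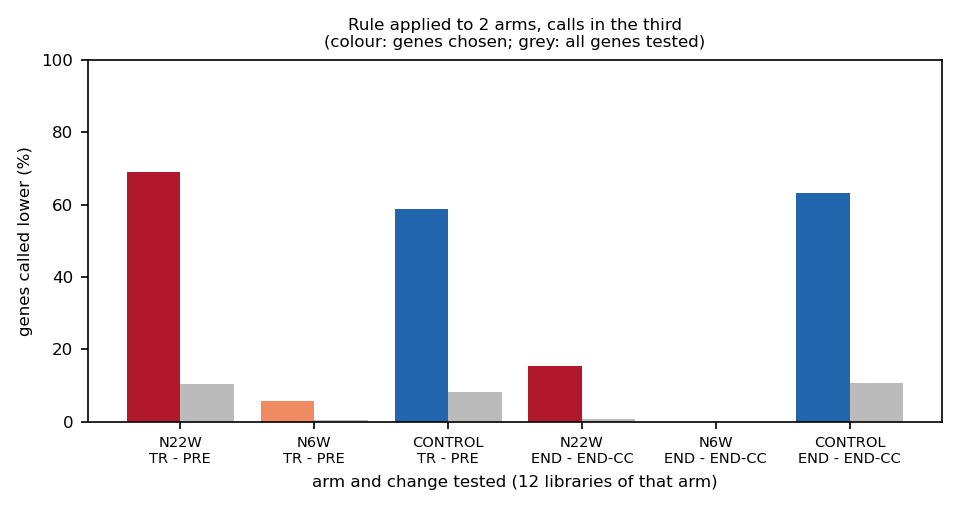
Percentage of genes called lower by limma in an arm that had no part in choosing them (coloured bars, N22W, N6W and CONTROL) and of all 16417 genes tested (grey bars), for TR minus PRE on the left and END minus END-CC on the right. The coloured bar exceeds the grey one in each pair save END minus END-CC in N6W, where both are 0.

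The study asked whether nandrolone alters the course of release and repair. For the members, differences between arms were tested gene by gene, since the rule used only means over all 9 animals. A gene can still meet such a mean through 1 arm alone. Without N22W, N6W or CONTROL, the rule kept 96, 152 or 118 of the 162 members. Members that entered through 1 arm carry a difference between arms, so shares of members beside those of all genes are a description. The release change of N22W minus that of CONTROL had a median of −0.20 over the 162 members, and 123 of them, 75.9%, were lower in N22W, against 51.7% of all genes tested. Limma, edgeR and DESeq2 each called 0 members, beside 0% of all genes tested by limma, and 14 members, or 8.6%, had a limma p under 0.05 before adjustment, against 6.6% of all genes. Over all genes, edgeR called 11 of 16417, and DESeq2 27 of the 14507 it gave an adjusted p. The genes lowered by release only had a median of −0.19, with 89 of 147 lower. Animals of both arms overlapped in the members' median change: −1.30, −0.61 and −1.27 in N22W, against −0.84, −0.97 and −0.65 in CONTROL. The median difference was −0.43 without animal 2914, −0.13 without 2913, −0.09 without 2915 and −0.11 without 2903. Without 2914, 33 members, or 20.4%, had such a p, against 8.8% of all genes.

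Set against all 6 animals without drug by TR, the N22W release change differed by a median of −0.28, against −0.05 over all genes tested, with 125 of 162 members lower. Limma and edgeR each called 0 members, beside 0.0548% of all genes tested by limma, and 23 members, or 14.2%, had an unadjusted p under 0.05, against 8.0% of all genes. DESeq2 called 3 members, beside 0.219% of all genes, all lower in N22W: ENSOARG00000020383, ENSOARG00000002851 and ENSOARG00000012750, named after their values were seen. All 3 met the release threshold only with the N22W animals included, so their calls are tied to how they became members. The mean release change of ENSOARG00000020383 was −2.74 in N22W, 0.13 in N6W and −0.07 in CONTROL. Without animal 2909, limma called 6 members lower, these 3 among them, beside 0.164% of all genes tested. The count before adjustment was 53 without 2909 and 50 without 2914, or 32.7 and 30.9% of the members, against 11.5 and 11.1% of all genes. It was 11 without 2913 and 12 without 2915. The median difference was −0.49 without animal 2914, −0.42 without 2909, −0.16 without 2907, and −0.14 without 2913 or without 2915. The lowest adjusted p of a member was that of ENSOARG00000020383, at 0.0717 by limma, for a difference of −2.77 (SE 0.58).

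Differences of single members between N22W and CONTROL lay in both directions, and none passed the threshold. ENSOARG00000016285 had the most negative difference in release change, −2.76 (SE 0.83, limma adjusted p = 0.438). It had 53.6, 158 and 155 normalized reads at TR, against 637, 424 and 610 at PRE, in N22W, and 343, 437 and 603 at TR, against 330, 607 and 179 at PRE, in CONTROL. All 3 N22W animals were lower at TR, while 2 of the 3 CONTROL animals were higher. ENSOARG00000020383, described above, came next with −2.67 (SE 0.67, limma adjusted p = 0.327). At the other end ENSOARG00000003275 had a difference of 1.50 (SE 0.47, limma adjusted p = 0.49). Its N22W animals had 90.9, 264 and 99.1 at TR, against 124, 238 and 121 at PRE, and its CONTROL animals 105, 176 and 78.8 at TR, against 237, 681 and 310 at PRE. ENSOARG00000001434, a scarce member, had a difference of 1.34 (SE 0.66, limma adjusted p = 0.757). It had 12.04, 9.92 and 12.05 at TR, against 30.5, 11.8 and 15.8 at PRE, in N22W, and 14.1, 11.01 and 17.2 at TR, against 33.8, 71.3 and 76.1 at PRE, in CONTROL. The lowering was larger in CONTROL for these last members and larger in N22W for the first pair. Their levels at PRE, before any drug, already lay apart in the direction that widens these differences. PRE of N22W minus CONTROL was −1.61 (SE 0.44) for ENSOARG00000001434 and −1.26 (SE 0.41) for ENSOARG00000003275. It was 0.84 (SE 0.25) for ENSOARG00000020383 and 0.73 (SE 0.39) for ENSOARG00000016285. In limma the adjusted p was 0.931 for the first 3 and 0.951 for the last, and the part of PRE levels in the release differences was not tested. ENSOARG00000020383 and ENSOARG00000016285 met the release threshold only with N22W included, and ENSOARG00000003275 only with CONTROL included. Mean release changes in N22W, N6W and CONTROL were −2.31, −0.94 and 0.44 for ENSOARG00000016285 and −0.19, −0.25 and −1.69 for ENSOARG00000003275. ENSOARG00000001434, at −0.62, −1.16 and −1.96, did not depend on 1 arm.

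At the end, the difference between END and END-CC was smaller in treated animals for most members. N22W and N6W together minus CONTROL gave a median of 0.20, against 0.00 over all genes tested, and 131 of the 162 members had the less negative difference in treated animals. Limma, edgeR and DESeq2 each called 0 members, beside 0% of all genes tested by limma, and 3 members, or 1.9%, had an unadjusted p under 0.05 in limma, fewer than the 4.6% of all genes. That count was 26, or 16.0%, without animal 2909, against 8.6% of all genes, and 0 without 2901, 1 without 2908, 9 without 2903, 6 without 2915 and 5 without 2902. The median was 0.08 without animal 2901, 0.09 without 2908 and 0.33 without 2909. The change from TR to END, which crosses the sets alike in both arms, had a median of 0.19 in N22W minus CONTROL, with 126 members higher. Over all genes, limma and edgeR each called 1 here and DESeq2 called 2. All 3 tools called 0 members, beside 0.00609% of all genes tested by limma, and 6, or 3.7%, had an unadjusted p under 0.05 in limma, near the 2.9% of all genes. That count was 18 without animal 2903 or without 2914, 9 without 2915, 3 without 2902, 2 without 2913 and 1 without 2901. The median was 0.04 without animal 2901, 0.07 without 2913, 0.12 without 2915 and 0.35 without 2914.

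Levels at the end were compared separately for each muscle. In the other muscle, END-CC of N22W and N6W minus CONTROL had a median of −0.16 over the members, with 104 of 162 lower in treated animals. Limma and edgeR called 0 members, beside 0% of all genes tested by limma, and 30 members, or 18.5%, had a limma p under 0.05 before adjustment, against 7.8% of all genes. DESeq2 called 4 members lower, beside 0.358% of the genes it gave an adjusted p: ENSOARG00000002230 at −1.61, ENSOARG00000006132 at −0.76, ENSOARG00000007244 at −0.89 and ENSOARG00000011789 at −0.37, named after their values were seen. The median was −0.03 without animal 2903. In the operated muscle, END of N22W and N6W minus CONTROL had a median of 0.07, with 61 of 162 lower. Limma and edgeR called 0 members, beside 0% of all genes tested by limma, and 12 members had an unadjusted p under 0.05 in limma, or 7.4%, against 6.4% of all genes. Without animal 2909 that count was 50, or 30.9%, against 11.5% of all genes, and it was 22 without 2903. DESeq2 called 1 member lower, ENSOARG00000020383, at −1.52, beside 0.509% of the genes it gave an adjusted p. The END values of this gene, given above, all lay below those of CONTROL in N22W, whereas N6W and CONTROL overlapped. The members' median was −0.06 without animal 2901, −0.03 without 2908, 0.01 without 2907, 0.12 without 2902, 0.16 without 2903 and 0.20 without 2909.

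Before surgery, PRE of N22W minus CONTROL had a median of −0.03, and of −0.09 to 0.05 when any 1 of the 6 animals was left out. Limma and edgeR called 0 members there, beside 0% of all genes tested by limma, DESeq2 called 1 beside 0.287% of the genes it gave an adjusted p (ENSOARG00000002247, at −1.25 and lower in N22W, named after its value was seen), and 18 members, or 11.1%, had a limma p under 0.05 before adjustment, against 5.2% of all genes.

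**Figure D5:**
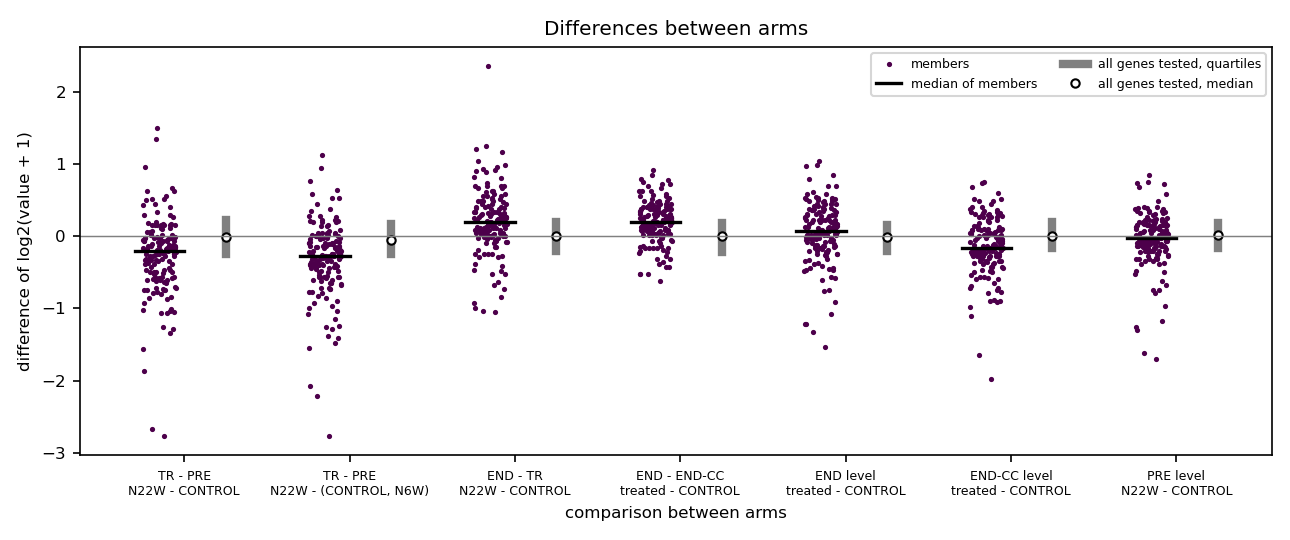
Differences between arms in log2(value + 1) for the 162 members (points, with their median as a black bar) beside the quartiles and median of all 16417 genes tested (grey bar and circle), for 7 comparisons; treated means N22W and N6W together. The members' median lies below 0 for the release changes, at −0.20 and −0.28, and above 0 for END minus TR and END minus END-CC, at 0.19 and 0.20, with no member called by limma.

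In N6W all 4 libraries of an animal lie in 1 set, so the members could be followed through the study there. The rule used these libraries, and the values are a description. The members' median change from TR to END was 0.17, with 113 of 162 higher, and by animal −0.03 in 2907, 0.41 in 2908 and 0.11 in 2909. END remained below PRE by a median difference of −0.54, with 150 of 162 lower, and by animal the difference was −0.32, −0.13 and −1.28. The animal with the deepest release fall, 2909, thus stayed the lowest at END.

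The muscle of the other side at the end was also set against the operated muscle before release; these are different muscles of an animal, and no library of the other muscle from before release was analysed here. END-CC minus PRE in N6W had a median of −0.04 over the members, with 86 of 162 lower, and by animal 0.14 in 2907, −0.01 in 2908 and −0.16 in 2909. For the genes lowered by release only it was −0.65, with 130 of 147 lower, and by animal −0.53, −0.61 and −0.86. END minus PRE was −0.70 for the genes lowered by release only. Both lists were therefore below PRE in the operated muscle at END, and the genes lowered by release only were also below that PRE level in the muscle of the other side. A list chosen for a small difference between END and END-CC must show this if its genes stay low at END, so the contrast describes the lists and was not tested.

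Members also varied together around the means of their groups of libraries. Each member's deviations from the means of the 12 groups were correlated with the median deviation over the members. Over 36 libraries Pearson's r had a median of 0.66, was above 0.5 in 107 members, or 66.0%, and was below 0 in 6. The genes lowered by release only had a median r of 0.34, with 38.1% above 0.5, and the other 12084 genes that met the abundance conditions −0.01, with 14.7% above 0.5. Members enter the median they are compared with, and the points share libraries and animals, and r is given as a description. Members were also more abundant than the genes lowered by release only, and the part of abundance in r was not tested. Over the whole profile, group means included, the median r was 0.82 in members. It was 0.63 in the genes lowered by release only and 0.34 in the other 12084 genes. Group means hold the contrasts that chose the members and any difference between the sets of libraries, so this r is also a description. The genes outside the members with the most similar profile were ENSOARG00000015212 and ENSOARG00000003381, each with r = 0.96 over 36 libraries. Their mean release changes of −0.58 and −0.59 missed the first threshold, while their differences at END of −0.56 and −0.41 met the second.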

How the data were processed

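Stranded total RNA libraries were made after removal of ribosomal RNA with probes for human RNA, per the labels' protocols. STAR 2.3.0e, R 3.0.2 and the assembly Oar_v3.1 are named without a role, per the submitters' processing notes. Not given in the sources used here are the counting tool, the annotation and the origin of the size factors. In each library the deposited signal per gene is a whole multiple of 1 step, 0.51151 to 1.61526; after division by it, 100.0% of values up to 100 were whole to within 0.1. It was read as reads divided by a size factor, and the authors' scaling was kept.

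Differences between arms were tested with limma 3.58.1 (trended prior) on log2(value + 1), over 16417 genes whose median was 0.5 or more, in 1 fit of all 36 libraries with arm-by-time means and the animal as a block, which leaves 18 residual degrees of freedom. Levels at 1 time point were fitted without a block on the libraries compared. Folds of low genes are understated on this scale. P values are two-sided, adjusted by the Benjamini-Hochberg method over all genes tested, and called under 0.05; they rest on 3 animals per arm. edgeR 4.0.16 and DESeq2 1.42.0 on the recovered reads were alternatives. The scripts were tested on simulated data. Libraries are paired by animal, because biopsies were repeated in the same sheep per the design text. Deviations from group means had a mean r of 0.24 between libraries of an animal (54 pairs) and −0.12 between animals of an arm (108 pairs). Deviations of the 3 animals sum to 0 in each group, so the second value largely follows from the first. No pair of libraries in a group agreed within sampling noise (chi-square per gene 15.16 to 155.82).

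The members, lists and tests were chosen with earlier results of these data known. Named members are the lowest 2 by each measure of the rule, the most abundant 2, the highest and lowest 2 by the N22W minus CONTROL release difference, and the nearest 2 on either side of each threshold; the genes outside the members are the 2 most similar in profile. Lists of muscle fibre, fat, connective tissue and metabolic genes were planned by symbol and not used, because 0 of the 25197 identifiers matched the 35057 entries of the name table. Changes from PRE or TR to END within CONTROL and N22W are not given. Those libraries lie in different sets, and the value of 1 read averaged 0.999 (geometric mean) over the 12 libraries and 1.0 over the other 24, as it would if each set had been scaled on its own. No source used here says whether the sets also differ in annotation or other processing.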

Additional observations from a re-analysis of the deposited data

Results flagged for a closer look

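Among 26 groups of 6 animals checked for a single animal far from the rest, 2 were found, and chance gives about 1 in 20. Both concern ENSOARG00000020760, the member nearest inside the END threshold, in the N6W animal 2909. Its change from PRE to TR was −1.93, against −0.78 to −0.48 in the other 5 animals without drug by then, and the gap was 0.79 of the whole range. Its difference between END and END-CC was −1.32, against −0.29 to 0.18 in the other 5 treated animals, with a gap of 0.68 of the range. Both values share animal 2909, whose members lay low at TR and END in general, and no cause was tested.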

How the results depend on the processing

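The 368 settings tried covered the named genes' mean TR minus PRE, mean END minus END-CC and, for 4 members, N22W minus CONTROL release difference. In all of them the value stayed in direction and moved less than its spread, or stayed on its side of the test's threshold. Leaving out 1 animal cannot move a mean over animals by as much as their SD, so the spread condition could not fail there. The 4 release differences had limma adjusted p values of 0.327 to 0.757, so staying above the threshold says little. The 368 settings do not include the comparisons in which DESeq2 called ENSOARG00000020383. In all, 141 of 168 settings of counts stayed within 1.5 times. The rule found 83 genes with thresholds 0.1 stricter and 354 with thresholds 0.1 looser, and 124 to 238 without 1 animal; 115 to 161 of the 162 members stayed, fewest without 2909.

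With DESeq2, members called were 3 for the release change of N22W against CONTROL and N6W, 4 for END-CC, 1 for END and 1 for PRE, against 0 in limma; without 1 animal the first count ran from 0 to 6. For genes chosen on 2 arms and tested in the third, no filter on low values gave 36 (CONTROL release), 57 (CONTROL END against END-CC), 42 (N22W release), 0 (N22W END against END-CC) and 0 (N6W release) calls. Without the block for animal, the unpaired fit gave 58 for CONTROL release, 1 for N22W END against END-CC and 3 for N6W release; it moved no other count of calls by over 1.5 times. Leaving out 1 animal gave 10 to 88, 55 to 90, 22 to 85, 0 to 13 and 0 to 0 in the same order. The cause of these shifts was not tested, except that fewer animals leave fewer degrees of freedom. Depth limits the scarcest members, whose lowest value was 1.246 normalized reads.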
